A study of Drosophila melanogaster with 110 samples.

Results

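The wingless cluster is a row of 4 Wnt genes on chromosome arm 2L of Drosophila melanogaster, and its chromatin is described here in Kc167 cells, an embryonic Drosophila cell line with blood cell (hemocyte) character. In the order of the chromosome (dm6 assembly) the members are Wnt4 (FBgn0010453, chr2L:7255419-7277171, minus strand), wg (wingless, FBgn0284084, chr2L:7307159-7316265, plus strand), Wnt6 (FBgn0031902, chr2L:7333714-7352542, plus strand) and Wnt10 (FBgn0031903, chr2L:7363379-7377528, plus strand). All peaks that overlapped the span of the 4 genes and 10 kb on each side (chr2L:7245419-7387528, 142 kb) were taken, which gave 225 of the 272688 peaks in 76 lists. Kc167 cells had been treated for 4 days with dsRNA against rump, which encodes the RNA-binding protein Rump, or with dsRNA against GFP as the control, and both groups come from this 1 line. Chromatin immunoprecipitation (ChIP) followed by sequencing was available for 13 targets, with 3 rump RNAi and 3 control libraries for each of 12 targets and with 2 and 2 for H3K27me3. Every sample used has 1 list of the places where ChIP signal exceeded its input, with the fold enrichment over input that the authors' peak caller gave. A place without a peak is one that did not pass that caller's threshold, and the sequencing depth behind the lists is unknown.

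Wnt proteins are secreted ligands that bind Frizzled receptors, and wg, Wnt6 and Wnt10 stand side by side in many animals. Wingless patterns segments and appendages in the fly embryo and larva, and wg is a classic target of the Polycomb group (PcG), which keeps developmental genes silent outside the cells that need them. Polycomb response elements (PREs) are DNA sites where DNA-binding recruiters, among them Pho, Combgap (Cg) and Crooked legs (Crol), bring in the Polycomb repressive complexes. PRC1 includes Ph, Psc and Pc, and PRC2 includes E(z), which places the mark H3K27me3, and Su(z)12. CP190, CTCF, Su(Hw) and Mod(mdg4) are insulator proteins, which can separate neighbouring domains of chromatin. The lists hold no expression data, so nothing here measures whether the 4 genes were transcribed or how far Rump was depleted.

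The cluster had 2 PcG sites, out of 421 in the genome, where a PcG site is a Ph region met by regions of both Psc and Pho, and a region counts when 3 or more of its 6 libraries had a peak. One lay at the promoter of wg and the other about 4.6 kb upstream of it, and a weaker Pho site lay between Wnt6 and Wnt10. Their sequences are shown as examples of places where Pho, a DNA-binding recruiter, was listed in at least 3 libraries. Pho regions in Wnt6 and in an intron of Wnt10 also reached 3 libraries, and their sequences are not shown. The wg promoter sequence is the 300 bases that end just before the annotated start of wg (chr2L:7306859-7307158), and the other sequences are 300 bases centred on the median Pho summit (chr2L:7302434-7302733 and chr2L:7358848-7359147), all on the plus strand of dm6 and outside annotated exons. Capitals mark every match on either strand to GCCAT, the core of the Pho motif, and to GTGTG, whose overlapping matches run together. The GAGA factor motif GAGAG was searched as well and had no match.
wg promoter site: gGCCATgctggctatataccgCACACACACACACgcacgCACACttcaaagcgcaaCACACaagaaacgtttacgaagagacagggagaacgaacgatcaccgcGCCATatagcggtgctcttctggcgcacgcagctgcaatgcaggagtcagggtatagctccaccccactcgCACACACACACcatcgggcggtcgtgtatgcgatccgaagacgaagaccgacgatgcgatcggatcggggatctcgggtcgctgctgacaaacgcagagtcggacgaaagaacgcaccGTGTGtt
wg upstream site: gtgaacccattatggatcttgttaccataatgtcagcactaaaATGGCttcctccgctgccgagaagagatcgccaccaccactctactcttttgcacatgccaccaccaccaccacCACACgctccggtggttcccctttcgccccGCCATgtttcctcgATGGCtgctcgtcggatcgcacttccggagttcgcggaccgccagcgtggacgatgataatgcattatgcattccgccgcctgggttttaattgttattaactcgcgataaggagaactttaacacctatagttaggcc
Wnt6-Wnt10 site: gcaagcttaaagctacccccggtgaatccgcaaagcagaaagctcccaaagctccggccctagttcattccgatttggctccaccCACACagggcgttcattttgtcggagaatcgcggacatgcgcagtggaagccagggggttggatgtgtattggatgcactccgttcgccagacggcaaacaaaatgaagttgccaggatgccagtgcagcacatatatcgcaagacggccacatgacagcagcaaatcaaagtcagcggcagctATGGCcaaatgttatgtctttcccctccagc

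The wg promoter sequence held 2 matches to GCCAT, 1 of them centred 7 bp from the Pho summit, and 12 matches to GTGTG, 11 of them on the minus strand. The upstream sequence held 3 matches to GCCAT, of which 2 were centred 1 bp and 13 bp from the Pho summit, and 1 match to GTGTG. The sequence between Wnt6 and Wnt10 held 1 match to GCCAT, 121 bp from the summit, and 1 match to GTGTG. A match to GCCAT within 15 bp of the centre was found in 15.4% of 4532 Pho regions with a peak in at least 3 of 6 libraries, against 6.85% of 44548 windows of 300 bp taken along the chromosome arms. At least 1 match to GCCAT anywhere in 300 bp was common, in 60.8% of the Pho regions and 47.4% of the windows, and 12 or more matches to GTGTG were found in 1.13% of Pho regions and 0.48% of windows. A match describes letters only and shows no binding. The sequences are from the RefSeq copy of dm6.

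At the wg promoter site (chr2L:7306353-7307839, over the start, the 5′ UTR and the first coding sequence of wg), all of Pho, Ph, Psc, E(z), Su(z)12, Cg and Crol had a peak in every library of both conditions. Of the 421 PcG sites of the genome, 115 (27.3%) had all 7 proteins in all of their libraries. It was the only place in the window with an E(z) peak, and by its median percentile of fold enrichment within the Ph lists it ranked 18 among the 421 sites. The median summits of the 7 proteins lay between -187 bp (Pho) and -134 bp (Su(z)12) of the wg start. Ph, the Polyhomeotic subunit of PRC1, had a fold enrichment of 46.1, 31.9 and 41.1 in rump RNAi libraries, against 41.2, 40.7 and 36.8 in control libraries. The groups overlapped, with means of 39.7 ± 7.21 and 39.6 ± 2.40 (SD, n = 3 each). Pho, the DNA-binding recruiter, had 29.9, 19.6 and 29.7-fold enrichment after rump RNAi, against 29.1, 24.5 and 20.4-fold in control. Psc, a further PRC1 subunit, had 24.5, 27.6 and 23.5-fold enrichment in rump RNAi libraries, against 21.5, 26.9 and 51.99-fold in control libraries, and control replicate 3 stood above the other 5 libraries.

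For the PRC2 subunits the libraries of a condition differed by more than the conditions did. E(z), the methyltransferase, had a fold enrichment of 20.9, 8.55 and 18.6 after rump RNAi and of 14.7, 16.0 and 7.61 in control. Su(z)12 had 13.3, 8.80 and 19.1-fold enrichment in rump RNAi libraries, against 9.38, 18.0 and 9.28-fold in control libraries. Cg, a zinc finger recruiter, had 18.3, 23.1 and 19.7-fold enrichment after rump RNAi, against 17.9, 19.6 and 16.6-fold in control, again with overlapping groups. Crol, also a zinc finger protein, had 9.30, 7.43 and 5.46-fold enrichment in rump RNAi libraries, against 5.46, 9.76 and 9.64-fold in control libraries. On the log2 scale, with each library centred on its median, rump RNAi minus control came to -0.26 ± 0.19 (SE) for Crol and to between 0.09 and 0.22 for the other 6 proteins, and limma with Benjamini-Hochberg adjustment over all regions of a target gave adjusted p of 0.316 for Crol and of 0.854 to 0.998 for the others. With the replicate number as a block, limma gave adjusted p of 0.573 for Psc, 0.754 for Ph and 0.997 for Pho, whose libraries were taken as paired. For Psc the means of fold enrichment were 25.2 ± 2.16 after rump RNAi and 33.5 ± 16.3 in control (SD, n = 3 each), so that its centred difference of 0.19 had the other sign, and it was -0.31 without centring. The signs for Ph, Pho and E(z) turned when single libraries were left out.

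**Figure D1:**
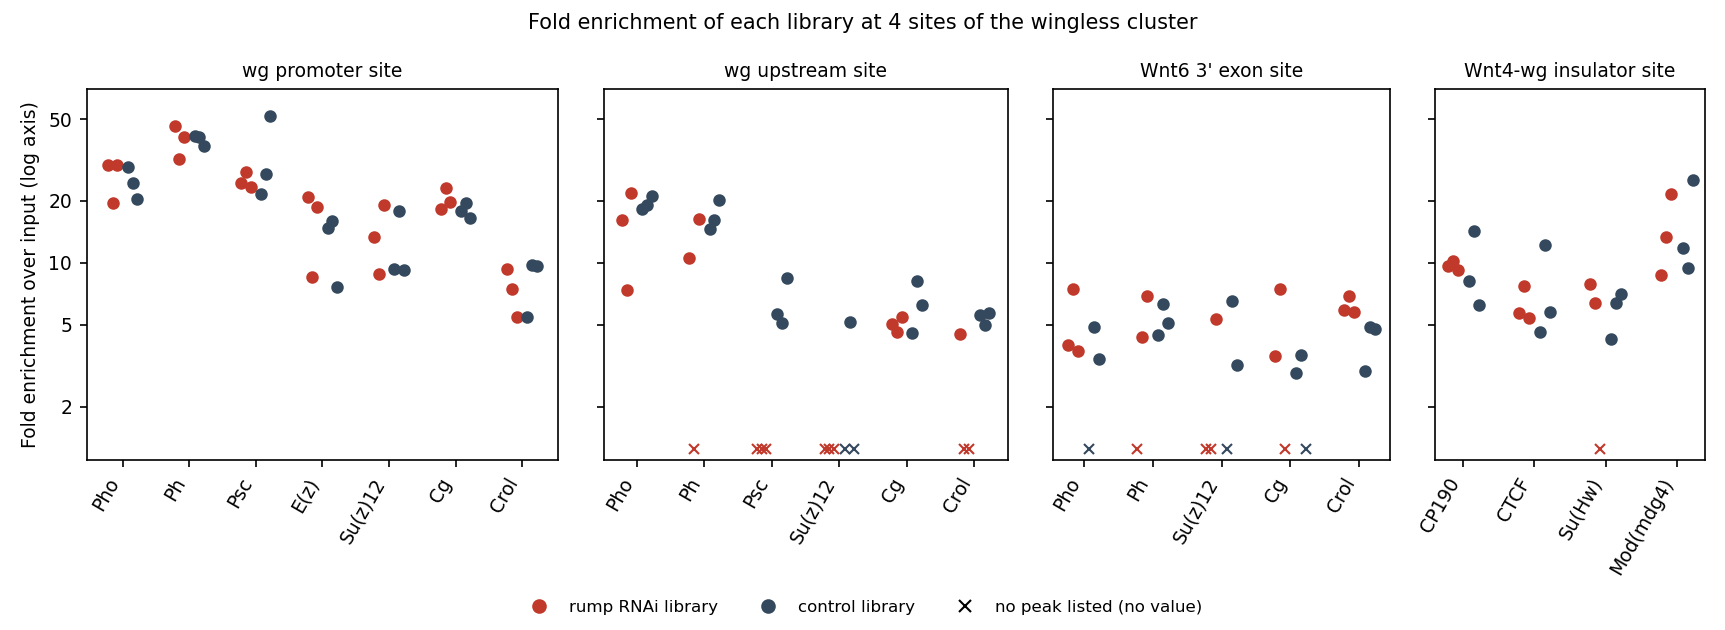
Fold enrichment over input (log axis) of each library at 4 sites of the cluster, with rump RNAi libraries (red points) left of control libraries (dark blue points) for each ChIP target, and crosses at the foot for libraries with no listed peak. At the wg promoter site the groups overlap for all 7 proteins, and at the wg upstream site the 3 crosses of Psc are all rump RNAi libraries.

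At the upstream PcG site (chr2L:7302247-7302853, intergenic, between Wnt4 and wg) the Psc lists of the conditions did not overlap. Psc had no peak there in any rump RNAi library and a fold enrichment of 5.66, 5.08 and 8.47 in the 3 control libraries. It was the only region of the 54 narrow-peak regions in the window that was lost (a peak in every control and in no rump RNAi library), against 0.704% of the 67715 regions of all 11 narrow-peak targets and 3.79% of the 1321 Psc regions. The Psc lists were shorter after rump RNAi, with 322 to 398 peaks against 723 to 881 in control, and the lowest fold enrichment in a rump RNAi list was 2.84 to 4.09, against 2.25 to 3.73 in control lists. The lowest -log10 q in a Psc list was 6.80 to 7.85 after rump RNAi, against 6.29 to 6.49 in control. The median fold enrichment was 7.65 to 10.9, against 5.44 to 7.57 in control. When every Psc list was limited to its peaks of highest fold enrichment so that all had equal length, the region was no longer lost. This cut removed the 3 control peaks there, which stood at percentiles 54.7, 24.3 and 58.0 of their lists. It thus cannot tell whether the loss goes with list length. With any 1 of the control libraries left out the site no longer met the definition of a PcG site. Of the 421 PcG sites, 45 (10.7%) had no Psc peak in any rump RNAi library. By the definition of a PcG site, each of these 45 had Psc in all 3 control libraries and was admitted through control alone. Sites with no Psc peak in any control library were not counted.

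Pho, Ph, Crol and Cg were listed at the upstream site in both conditions, and Su(z)12 in control replicate 2 alone (5.18-fold). Pho had 16.1, 7.42 and 21.8-fold enrichment in rump RNAi libraries, against 18.3, 19.1 and 21.1-fold in control libraries, with replicate 2 of rump RNAi below the rest. Without the replicate number as a block, its log2 difference was -0.47 ± 0.41 (SE, limma adjusted p = 0.998). Ph had a peak in rump RNAi replicates 1 and 3 (10.6 and 16.4-fold), against 14.6, 16.1 and 20.2-fold in the 3 control libraries. The replicate numbers were taken to pair the libraries of Ph and of Pho. For Ph the rump RNAi library of each pair was thus lower or without a peak, which was not tested since 1 library has no value. For Pho the rump RNAi library was lower in pairs 1 and 2 and higher in pair 3. Crol had 1 peak in rump RNAi, in replicate 1 (4.53-fold), against 5.55, 5.02 and 5.69-fold in the control libraries. The Crol lists were longer after rump RNAi. The Ph lists held 1450, 1983 and 2278 peaks after rump RNAi, against 2132, 2769 and 2137 in control. The part of list length at this site was not tested. Cg was listed in all 6 libraries, with 5.03, 4.63 and 5.47-fold enrichment after rump RNAi and 4.56, 8.20 and 6.25-fold in control (log2 difference -0.24 ± 0.18 SE, limma adjusted p = 0.883). By Ph percentile this site ranked 234 of 421, and E(z) was not listed there in any library.

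A further place where recruiters met lay in coding sequence of the 3′ part of Wnt6 (chr2L:7351065-7352127), without Psc or E(z), and Su(z)12 was listed there in rump RNAi replicate 3 (5.35-fold), against 6.502 and 3.17-fold in control replicates 2 and 3. Crol had a fold enrichment of 5.90, 6.90 and 5.80 in rump RNAi libraries, against 3.00, 4.87 and 4.76 in control libraries, so that all 3 rump RNAi values stood above all 3 control values. The log2 difference was 0.48 ± 0.19 (SE) with an unadjusted limma p of 0.0115. Of the 4999 Crol regions tested, 1893 had an unadjusted p under 0.05. For the region in Wnt6 the adjusted p over all 4999 was 0.0563, short of 0.05. It was 0.0467, past 0.05, without control replicate 2, between 0.0612 and 0.235 with any other library left out, and 0.293 without centring. This region was picked out after its values were seen. Ph was listed there in 2 rump RNAi libraries (4.35 and 6.89-fold in replicates 2 and 3), against 4.48, 6.27 and 5.12-fold in control. Pho was listed in all 3 rump RNAi libraries (3.99, 7.48 and 3.74-fold) and in 2 control libraries (4.90 and 3.43-fold in replicates 2 and 3). Cg had 3.54 and 7.42-fold in rump RNAi replicates 1 and 2, against 2.90 and 3.57-fold in control replicates 1 and 2. These peaks were thus weaker and less regular than those at the wg promoter, and the Ph, Pho and Cg values of the conditions overlapped.

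Between Wnt6 and Wnt10 (chr2L:7358790-7359582, intergenic), Pho had a peak in rump RNAi replicates 1 and 3 (5.69 and 8.76-fold), against 5.25, 5.54 and 6.55-fold in the control libraries. Ph was listed there in no rump RNAi library and in control replicates 1 and 3 (5.14 and 5.36-fold). A further Pho site in an intron of Wnt10 (chr2L:7365521-7365872) had 4.17 and 4.90-fold enrichment in rump RNAi replicates 1 and 3, against 4.14-fold in control replicate 3. Both sites thus had Pho without Psc, and neither met the definition of a PcG site.

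Crol had the most regions of any target in the window, 10 of 54, and also in the genome, 13679 of 67715. In the window it had 7 to 8 peaks per library after rump RNAi against 5 to 7 in control (exact permutation test, two-sided, p = 0.30, adjusted p = 1 over 13 targets). Its lists were longer after rump RNAi over the whole genome, with 9883 to 11117 peaks against 7214 to 8903, and Crol accounted for 980 of the 1013 regions gained in the genome. At 3 places every rump RNAi library and 1 control library had a Crol peak: at coding sequence of Wnt4 (chr2L:7256755-7257228), at the 5′ end of Wnt4 (chr2L:7276672-7277339) and at the 3′ end of wg (chr2L:7314435-7315212). The fold enrichment at these places was low, between 2.32 and 3.66 after rump RNAi and between 2.38 and 3.11 in the control libraries with a peak. No region of the window was gained by the rule of a peak in all rump RNAi and in no control library, against 1.50% of regions in the genome, while without control replicate 2 the first of these places was gained and without control replicate 3 the other 2 were. With lists of equal length the difference in Crol peaks per library was -0.333.

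**Figure D2:**
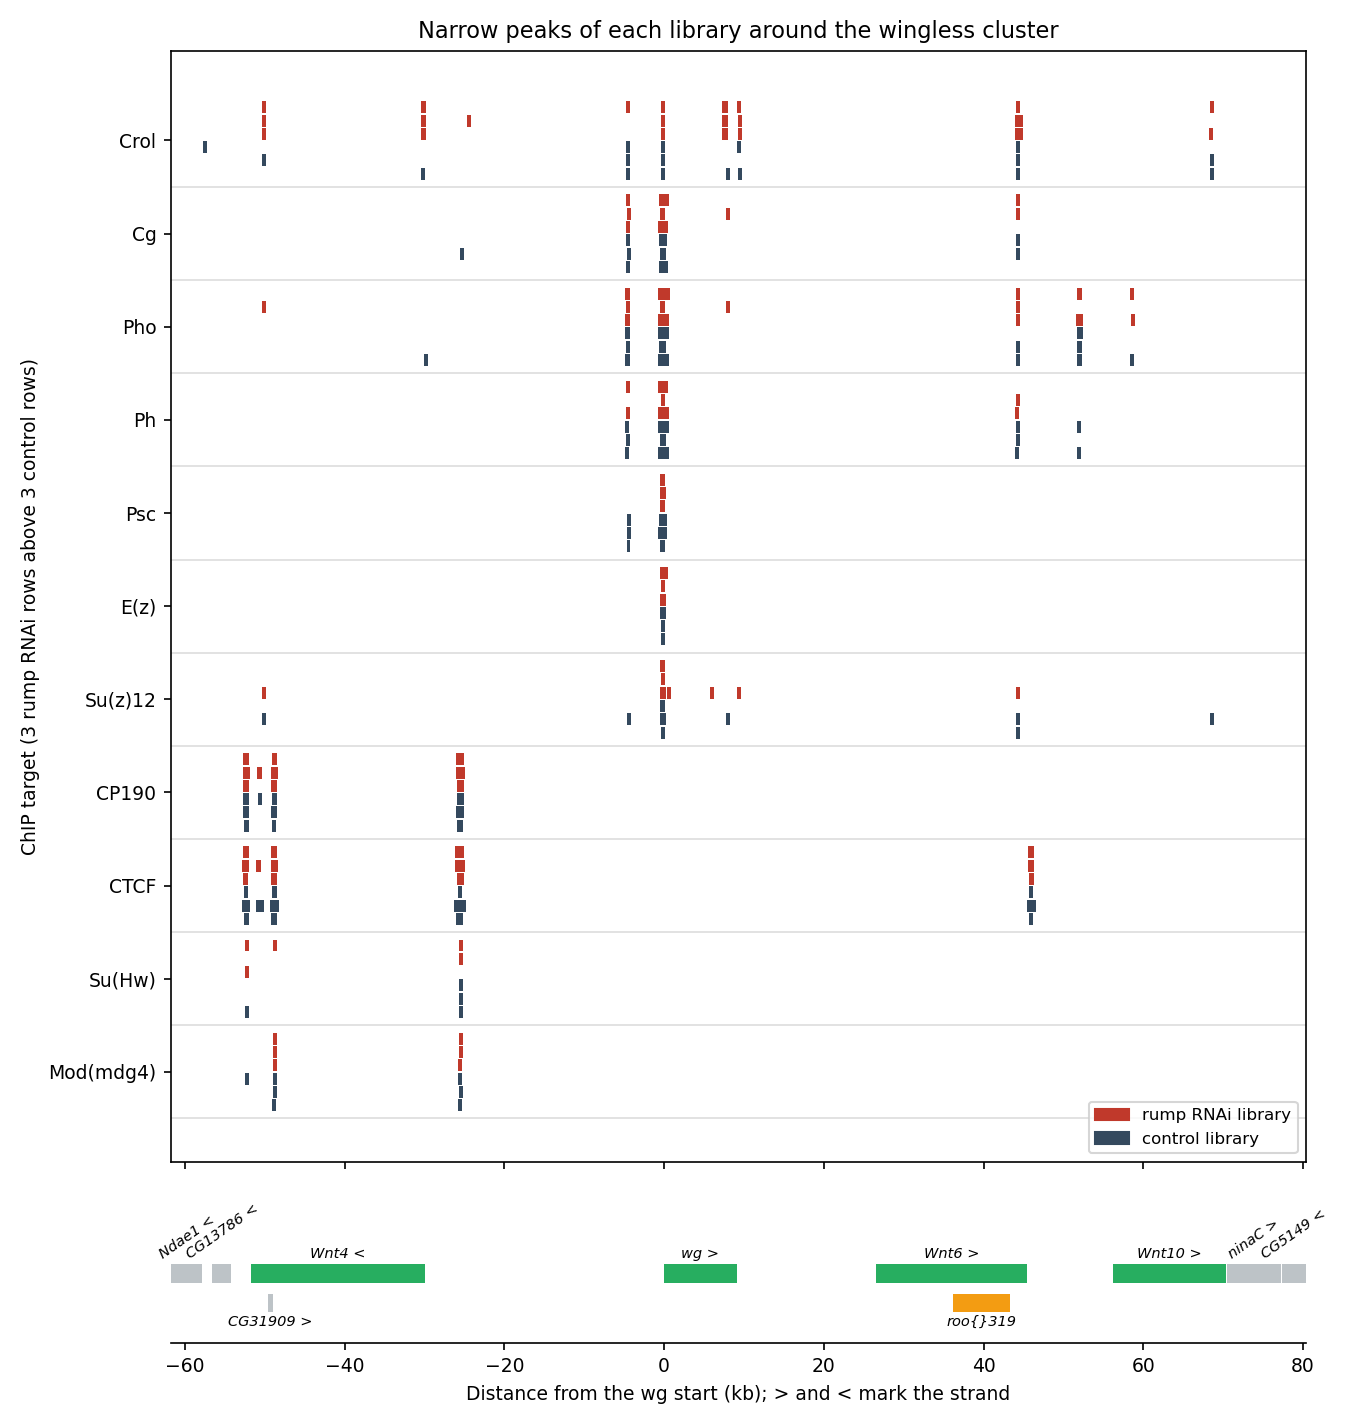
Narrow peaks of the 66 libraries of 11 targets (rows) along the distance from the wg start in kb, with the 3 rump RNAi libraries (red) above the 3 control libraries (dark blue) of each target, bars drawn at least 0.5 kb wide, and genes below (Wnt genes in green). Recruiters and PRC subunits stack at the wg promoter, while CP190 and CTCF stack at 3 places at and beside Wnt4.

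Across the 11 targets, 19 regions of the window had a peak in all 6 libraries and could be tested for a difference in fold enrichment. An unadjusted limma p under 0.05 was found for 1 of the 19, the Crol region in Wnt6, and for 2551 of the 26266 regions tested in the genome. That region passed the adjusted threshold when control replicate 2 was left out. With all libraries used, none of the 19 passed an adjusted p of 0.05 in limma, against 1.61% of the 26266 that were higher and 2.00% that were lower after rump RNAi. All of those genome-wide calls were regions of Crol, 422 higher and 526 lower of 4999, against 20 and 20 when rump RNAi replicate 2 was left out, 7 and 10 when replicate 3 was, and 0 and 0 without centring. In the 2 Crol regions tested at the cluster the difference was below 0 at the wg promoter and above 0 in Wnt6, and the difference between them was not tested.

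The main insulator sites lay apart from the PcG sites. CP190 and CTCF had a peak in every library at 3 sites: past the 3′ end of Wnt4 (chr2L:7254255-7255275), at the small gene CG31909 within Wnt4 (chr2L:7257750-7258960), and between Wnt4 and wg (chr2L:7280835-7282368). CTCF alone was listed in every library at a site just past the end of Wnt6 (chr2L:7352546-7353777). No insulator region lay within the wg promoter site or the upstream PcG site. The site between Wnt4 and wg lies near the start of the H3K27me3 peak described below, except in control replicate 2. The site past Wnt6 is the place with CTCF alone. For these reasons the sequences of both sites are shown. They are 300 bases centred on the median CP190 summit (chr2L:7281492-7281791) and CTCF summit (chr2L:7352941-7353240), intergenic, plus strand of dm6, with capitals for GGCGC, a core of the CTCF motif, on either strand.
Wnt4-wg insulator site: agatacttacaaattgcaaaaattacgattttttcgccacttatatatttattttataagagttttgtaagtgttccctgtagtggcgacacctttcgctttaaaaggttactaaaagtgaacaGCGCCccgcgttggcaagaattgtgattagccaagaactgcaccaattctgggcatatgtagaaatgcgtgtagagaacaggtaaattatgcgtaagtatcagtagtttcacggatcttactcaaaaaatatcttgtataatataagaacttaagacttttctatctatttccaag
CTCF site past Wnt6: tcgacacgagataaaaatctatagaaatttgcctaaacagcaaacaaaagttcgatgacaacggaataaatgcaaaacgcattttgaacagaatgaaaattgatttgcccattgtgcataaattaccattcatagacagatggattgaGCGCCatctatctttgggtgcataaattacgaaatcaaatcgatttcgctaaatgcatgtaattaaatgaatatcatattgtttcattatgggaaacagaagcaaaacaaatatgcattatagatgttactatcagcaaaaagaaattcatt

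Each of the 2 sequences held 1 match to GGCGC, at the CTCF summit itself (0 bp) past Wnt6 and 24 bp from the CP190 summit between Wnt4 and wg. A match within 25 bp of the centre was found in 41.7% of 1603 CTCF regions and 14.5% of 8031 CP190 regions, against 5.22% of the windows along the arms. CATACTT, a core of the Su(Hw) motif, had no match in either sequence, and at least 1 match in 300 bp was found in 7.92% of the CTCF regions, 21.3% of the CP190 regions and 3.97% of the windows.

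CP190, the BTB domain protein that several insulator proteins share, had at the site between Wnt4 and wg 9.60, 10.2 and 9.18-fold enrichment in rump RNAi libraries, against 8.15, 14.3 and 6.22-fold in control libraries. CTCF had 5.74, 7.74 and 5.40-fold there after rump RNAi, against 4.62, 12.2 and 5.74-fold in control. Mod(mdg4) had 8.75, 13.4 and 21.6-fold, against 11.9, 9.41 and 25.2-fold in control, and Su(Hw) had 7.89 and 6.40-fold in rump RNAi replicates 1 and 2, against 4.26, 6.36 and 7.04-fold in the control libraries. The groups overlapped for all 4 proteins. Past the 3′ end of Wnt4, CP190 had 9.69, 9.81 and 10.1-fold in rump RNAi libraries, against 9.75, 10.0 and 9.16-fold in control, with means of 9.88 ± 0.23 and 9.64 ± 0.44 (SD, n = 3 each). At CG31909 within Wnt4, CP190 had 7.20, 9.00 and 6.72-fold after rump RNAi, against 11.51, 18.7 and 5.37-fold in control (log2 difference -0.47 ± 0.30 SE, limma adjusted p = 0.999). CTCF had 4.39, 6.69 and 4.42-fold after rump RNAi, against 6.20, 13.8 and 4.71-fold in control. Control replicate 2 was the highest of the 6 libraries for both proteins. Past Wnt6, CTCF had 7.31, 9.07 and 5.80-fold after rump RNAi, against 4.67, 10.1 and 7.02-fold in control. Over the 9 tested regions of CP190, CTCF and Mod(mdg4) the log2 differences ran from -0.49 to 0.14, and the lowest limma adjusted p was 0.963. A Su(Hw) region at CG31909, named because its percentile is the highest as a median over libraries with a peak, was listed in rump RNAi replicate 1 alone (6.14-fold), where the region between Wnt4 and wg was higher (7.89-fold).

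H3K27me3 covered wg in full in both conditions, while the stretch between wg and Wnt6 was covered in full in the control lists and in part after rump RNAi. In rump RNAi libraries 17.8% and 22.7% of the bases between the end of wg and the start of Wnt6 lay under an H3K27me3 peak, against 100% in both control libraries. At wg itself the cover was 100% in all 4 libraries. At Wnt6 it was 18.2% and 6.02% after rump RNAi, against 55.8% and 55.9% in control. Both rump RNAi values were below both control values at Wnt6 and between wg and Wnt6, and with 2 libraries against 2 the exact two-sided permutation test can give no p below 0.333, which it gave in both cases.

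**Figure D3:**
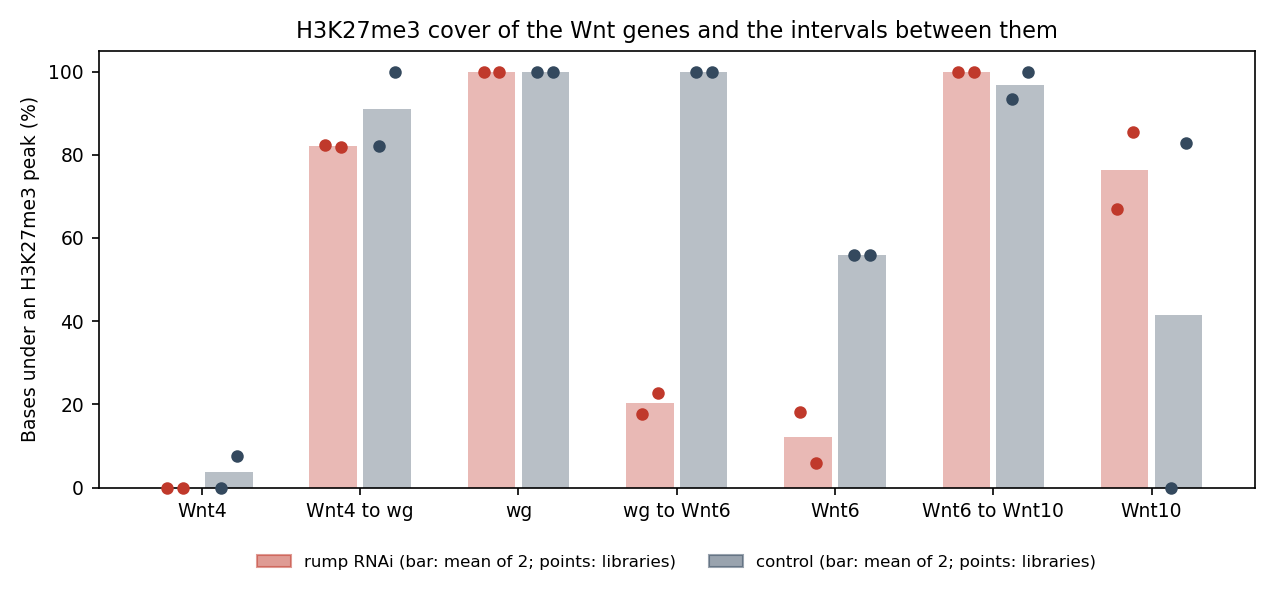
Percent of bases under an H3K27me3 peak for the 4 Wnt genes and the 3 intervals between them in chromosome order, with rump RNAi (red) left of control (dark blue), bars as means of 2 libraries and points as libraries. The groups stand apart between wg and Wnt6 and at Wnt6, where cover after rump RNAi is lower, and all 4 libraries reach 100% at wg.

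The other members behaved differently. Wnt4 had no H3K27me3 peak in either rump RNAi library or in control replicate 1, and 7.52% of it was covered in control replicate 2. Wnt10 was covered over 67.1% and 85.4% after rump RNAi, against 0% and 82.8% in control, so that control replicate 1 alone stood apart. Wnt6 was thus the 1 member of 4 with lower cover in every rump RNAi than in every control library, against 13.9% of the 900 protein-coding genes that had H3K27me3 cover in any library, and no member had higher cover in both, against 3.11%. The interval between Wnt6 and Wnt10 was covered in full in both rump RNAi libraries, and over 93.5% and 100% in the control libraries. None of the neighbouring genes Ndae1, CG13786, CG31909, ninaC and CG5149 had H3K27me3 cover in any list.

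The peak over wg began close to the same place in 3 of the 4 libraries. It started at chr2L:7282436 and chr2L:7282613 in rump RNAi libraries and at chr2L:7282544 in control replicate 1, which is 794, 971 and 902 bp past the CP190 summit, toward wg, of the insulator site between Wnt4 and wg, and in control replicate 2 the start lay at -6105 bp, on the Wnt4 side of that summit. An edge of an H3K27me3 peak within 1 kb of a CP190 summit was found for 11.4% and 13.9% of edges in the rump RNAi lists, against 12.9% and 12.1% in the control lists. On the other side the peak over wg ended 12.2 kb and 13.1 kb after the wg start in rump RNAi libraries, against 35.9 kb and 36.0 kb in control libraries. Rump RNAi replicate 1 had 1 more peak of 2.31 kb (33.7 to 36.0 kb after the wg start) that ended where the control peaks did. The mean fold enrichment over the peak at wg was 4.24 and 4.54 after rump RNAi, against 4.04 and 3.82 in control, as means over stretches of unequal length. The percentiles of these peaks within their lists were 85.1 and 80.1 after rump RNAi, against 85.1 and 92.0 in control.

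**Figure D4:**
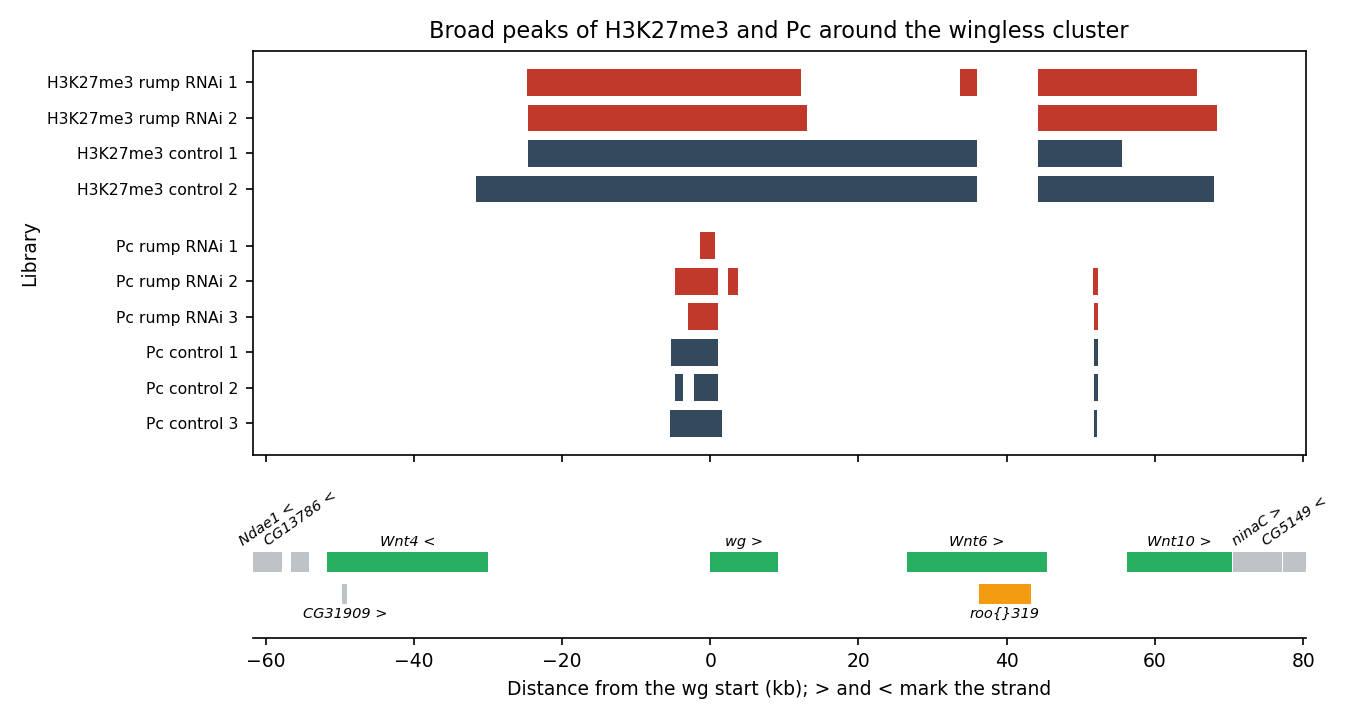
Broad peaks of the 4 H3K27me3 and 6 Pc libraries along the distance from the wg start in kb, rump RNAi libraries (red) above control libraries (dark blue), with genes (Wnt genes green, roo insertion orange) below. The H3K27me3 peak over wg ends between 12.2 and 13.1 kb in the rump RNAi libraries and between 35.9 and 36.0 kb in the control libraries, and no library has a peak over the roo insertion.

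The ends near 36.0 kb lay just before roo{}319, a roo retrotransposon of 7.06 kb inside Wnt6 in the reference (chr2L:7343381-7350438), over which no H3K27me3 library had a peak. The authors discarded reads with a mapping quality under 20, and the part of that filter in the absence of peaks over this repeated element was not tested. From the end of wg to the insertion, a stretch set after the values were seen, H3K27me3 covered 19.96% and 14.6% after rump RNAi, against 99.0% in both control libraries. Over the whole window the cover was 42.7% and 43.4% in rump RNAi libraries, against 50.5% and 64.2% in control libraries, a difference of -14.3 percentage points (exact permutation test, two-sided, p = 0.333). Without control replicate 2 it was -7.48 points and without control replicate 1 it was -21.2 points.

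Lower H3K27me3 cover after rump RNAi was also seen at many other domains. Joining the H3K27me3 peaks of all 4 libraries gave 518 domains of at least 2 kb, of which 137 (26.4%) had lower cover in both rump RNAi than in both control libraries. The domain of wg (chr2L:7275537-7343121, 67.6 kb) was among them, with 58.1% and 55.7% of its bases covered in rump RNAi libraries, against 89.6% and 100% in control libraries. That is a difference of -25.6 kb in mean covered length, rank 4 among the 518 domains from the largest decrease, while by length the domain ranked 36 and by the share of bases lost it ranked 200 of 518. Of the 129 domains of at least 20 kb, 66 were lower in both rump RNAi libraries and 2 were higher, and 16 of the 129, counting that of wg, lost at least as large a share of their bases. The domain over the end of Wnt6 and Wnt10 (chr2L:7351410-7375469, 24.1 kb) had 89.2% and 100% cover after rump RNAi, against 46.8% and 98.4% in control, with overlapping groups. Over the genome the H3K27me3 lists covered 7.80 and 7.02 Mb after rump RNAi, against 7.82 and 10.0 Mb in control, and the part of list size in these differences was not tested.

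**Figure D5:**
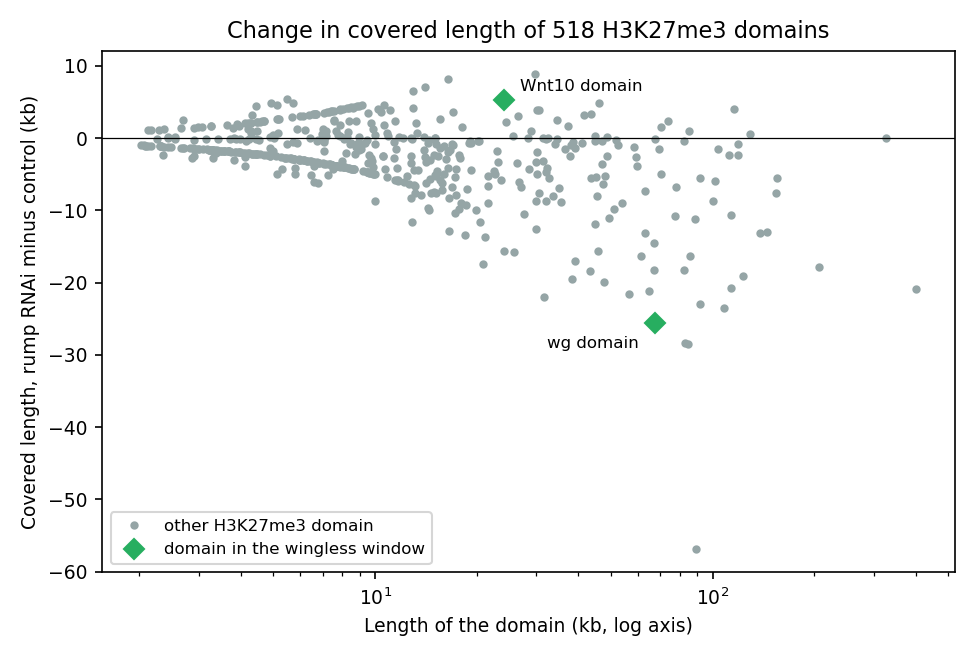
Change in covered length (rump RNAi minus control, mean of 2 libraries each, kb) against the length (kb, log axis) of 518 H3K27me3 domains, with the 2 domains of the wingless window as green diamonds. The wg domain lies among the largest decreases, and the Wnt10 domain lies above 0.

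Pc, the PRC1 subunit that binds H3K27me3, was listed over a far shorter stretch than the mark. Its peaks lay around the wg promoter, at the Pho site between Wnt6 and Wnt10 and, in rump RNAi replicate 2 alone, inside wg. In rump RNAi libraries the peak at the wg start was 2.12, 5.78 and 4.04 kb wide, against 6.33, 3.19 and 6.99 kb in control libraries. In control it reached the upstream PcG site in replicates 1 and 3, and replicate 2 had a separate peak of 1.103 kb there, while of the rump RNAi libraries replicate 2 alone reached that site. That replicate had the longest Pc list, with 974 peaks against 352 and 425 in rump RNAi replicates 1 and 3. In control the longest list, that of replicate 2 with 769 peaks, had the narrowest peak at the wg start. The part of list length was not tested. Pc covered 4.78% to 15.8% of the interval between Wnt4 and wg after rump RNAi (mean 10.2% ± 5.53, SD, n = 3), against 10.9% to 18.2% in control (15.6% ± 4.03, n = 3), with an exact two-sided permutation p of 0.20, where 0.10 is the smallest 3 against 3 can give. At wg the cover was 7.53% to 26.6%, against 11.1% to 16.9% in control. The 26.6% is that of rump RNAi replicate 2 and takes in its separate peak of 1.39 kb inside wg (2.32-fold).

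Pc cover was 0% at Wnt4, Wnt6 and Wnt10 in all 6 libraries. No member had Pc cover lower in every rump RNAi than in every control library, against 0.966% of 725 protein-coding genes with any Pc cover. At the site between Wnt6 and Wnt10, Pc had a peak in rump RNAi replicates 2 and 3 (3.36 and 2.78-fold mean enrichment), against 3.18, 2.78 and 2.77-fold in the 3 control libraries. Over the window Pc covered 1.49% to 5.51% after rump RNAi, against 3.36% to 5.25% in control (exact two-sided permutation p = 0.60). The Pc lists held 352 to 974 peaks after rump RNAi, against 639 to 769 in control.

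With 3 libraries against 3 (2 against 2 for H3K27me3) the exact test of peaks per library can give no p below 0.10 (0.333), so that no target could pass after adjustment over 13. The counts differed without overlap for Psc alone, with 1 peak in each rump RNAi library against 2 in each control library (exact two-sided permutation p = 0.10, adjusted p = 1 over 13 targets). Ph had 2 to 3 peaks against 3 to 4 in control, Pho had 5 in each rump RNAi library against 3 to 6, and E(z) had 1 in all 6 libraries. For CP190 (3 to 4) and CTCF (4 to 5) the range was the same in both conditions. Su(z)12 ranged from 1 to 6 in both.

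Outside the cluster, 35 genes of the Wnt pathway were taken as ligands, receptors, secretion factors, transducers, nuclear factors and target genes. Of these, 31 (88.6%) had no H3K27me3 peak in either rump RNAi library, and 30 (85.7%) had none in either control library, beside 94.8% and 94.2% of all protein-coding genes. A peak in both libraries of a condition was found at 4 of the 35 (11.4%) in each condition, beside 3.46% of all genes after rump RNAi and 3.69% in control. All 3 other ligands (Wnt2, Wnt5 and wntD) had none in any library. Among 10 receptors and co-receptors, fz3, a Frizzled family member, was covered over 14.2% and 16.8% in rump RNAi libraries, against 100% in both control libraries. Drl-2, a Derailed family receptor, had 23.4% and 52.8%, against 16.9% and 53.6% in control, and fz, fz2, fz4, arr, otk, otk2, drl and dnt had no cover in any library. Of the target genes, vg, which directs wing development, was covered in full in all 4 libraries, and Dll, a homeobox gene of the appendages, over 59.4% and 24.5%, against 93.6% and 100% in control. The target gene nkd, a feedback inhibitor of the pathway, had 17.1% in control replicate 2 and none in the other 3 libraries.

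Regions of the narrow-peak proteins were counted at these genes (a region called in at least 2 libraries of a condition, within the gene or 2 kb upstream). A Crol region was found at 29 of 35 genes after rump RNAi and at 27 in control, against 47.2% and 43.6% of 13945 protein-coding genes. Pho was found at 16 and 18 genes, against 22.9% and 25.8% of all genes, and Ph at 9 genes in both conditions, against 8.66% and 10.5%. Cg was found at 23 genes in both conditions (65.7%), against 37.9% and 41.4% of all genes. Psc and E(z) were each found at 2 genes in both conditions (5.71%), against 1.41% and 2.02% of all genes for Psc and 1.23% and 1.08% for E(z). Su(z)12 was found at 8 and 9 genes, against 4.38% and 6.78% of all genes. The insulator proteins were also found more often than at all genes. CTCF was found at 37.1% and 34.3%, against 12.7% and 10.9%, and CP190 at 71.4% in both conditions, against 60.2%. Su(Hw) was found at 28.6% and 37.1%, against 17.6% and 20.5%, and Mod(mdg4) at 25.7% in both conditions, against 15.2% and 20.8%. The 35 genes were not matched to all genes for length. Of the 4 members, E(z) and Psc regions were found at wg alone.

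The cell type could not be checked, since the lists hold no expression. None of 10 hemocyte genes (srp, ush, Hml, Pxn, Col4a1, vkg, NimC1, eater, crq and He) had H3K27me3 cover in any library, which is also true of most genes and so checks nothing. Peak lists varied between replicates of a target, from 368 to 4267 peaks for Su(z)12 after rump RNAi and from 315 to 2855 in control, and the part of list length in peaks missing at weak sites was not tested. Lists of H3K27me3 held 321 to 343 peaks after rump RNAi, against 296 to 452 in control.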

How the data were processed

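ChIP-seq peak lists of 13 targets in Kc167 cells were used, 76 in all. Inputs have no list of their own. The titles of 17 of them name Rump depletion while their treatment label names GFP dsRNA, and these were left unassigned. Condition and replicate were taken from the sample labels. The peak names inside the Psc, E(z) and Su(z)12 lists carry another replicate number than the label. The labels number biological replicates of this 1 line without naming separate cultures, so p-values measure the spread between these libraries.

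According to the submitters' notes and the study's methods, the authors used Trim Galore 0.6.7 for trimming, and reads were aligned to dm6 with Bowtie2 2.5.3, filtered for a mapping quality of 20 with SAMtools (1.12 in the submitters' notes, another version in the methods), and freed of rRNA reads and, with Picard, of duplicates. MACS2 2.2.7.1 was run by the authors on every library with the matching input. The deposited lists give a fold enrichment (ratio of ChIP over input, taken at a narrow peak's summit or averaged along a broad peak), a -log10 p and -log10 q, and a score that the authors' MACS2 run made from the -log10 q. The lists hold no counts, so read depth is unknown.

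Lists were compared with Python 3.11.15, pandas 2.3.3 and scipy 1.17.1. Genes came from Ensembl 115 (BDGP 6.54) and sequence from RefSeq, both of the dm6 assembly. Overlapping peaks (1 bp or more) of a target's 6 libraries formed a region, valued in each library at the highest fold enrichment. For regions that every library contained, log2 of the deposited fold enrichment was centred on the library median and tested with limma 3.58.1 (R 4.3.3), adjusted by Benjamini-Hochberg over all regions of the target with a threshold of 0.05. Cover and peaks per library were tested by exact permutation, two-sided. H3K27me3 domains are peaks of 4 libraries joined when less than 1 kb apart, of at least 2 kb. Interval functions and the limma fit were tested on simulated data.

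The members, gene lists, regions and tests were chosen with earlier results of these data known. Regions named are PcG sites, gained or lost regions, those past the limma threshold and, for each target, the one with the highest median percentile. The Crol, Cg, Ph and Pho regions in Wnt6, the Pho regions around Wnt10, the weak Crol regions, the other insulator regions and the motifs GGCGC and CATACTT were chosen after their values were seen.

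Deviations from the condition mean correlated over 0.1 in every pair of libraries with the same replicate number for 3 of 11 targets (Pho, Ph and Psc), where the numbers were taken to pair the libraries, and not for the other 8 (pair correlations from -0.27 to 0.76 over all targets).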

Additional observations from a re-analysis of the deposited data

How the results depend on the processing

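H3K27me3 cover of the window and of Wnt6 and the interval from wg to Wnt6 stayed lower after rump RNAi with each library left out, and the window also with flanks of 5 and 20 kb and, chosen after seeing the data, without the bases of roo{}319. In all of these, both rump RNAi values lay below both control values, so that leaving out a library could not turn the sign. The flanks and roo{}319 changed the length divided by and not the difference in covered bases. These settings are thus no test of the sign. A -log10 q of at least 10 could remove no H3K27me3 peak (lowest 10.05), and joined peaks and pairing left these differences as they were, so that these settings are no test of them. Left-out libraries moved the window from -21.2 to -7.48 points, and Pc cover of the window from -2.15 to -0.14. Lists of equal length removed the control Psc peaks upstream of wg, so that they are no test of that loss. The Psc region there was no longer called with such lists (0 lost) or at a -log10 q of 10 (0 lost). Both settings left 1 PcG site, as did leaving out any control library (1 to 2), since the upstream site's Psc peaks come from 3 control libraries. With flanks of 20 kb 3 regions were lost. Left-out libraries gave 0 to 2 gained regions (Crol at Wnt4 or at wg, without control replicate 2 or 3) and 1 to 2 lost (also Crol upstream of wg without rump RNAi replicate 1, and Ph between Wnt6 and Wnt10 without control replicate 2).

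With the replicate number as a block, 1 region was higher, Crol in Wnt6 (adjusted p = 0.0316), and likewise 0 to 1 with left-out libraries (0.0467 without control replicate 2). Its adjusted p ranged from 0.0316 to 0.293, and Crol libraries are not paired by their numbers. The block changed no other call. At an unadjusted limma p under 0.05, 1 of the 19 tested regions was lower with the block, against 0 without it. Over the genome, 422 regions were higher and 526 lower, against 0 and 0 without centring, 34 and 23 on percentiles, 673 and 729 with the block, 20 and 20 without rump RNAi replicate 2 and 7 and 10 without rump RNAi replicate 3.

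Signs turned for values that passed no test. Without centring, the log2 difference was -0.31 for Psc and -0.012 for Ph at the wg promoter and -0.053 for Mod(mdg4) between Wnt4 and wg. With left-out libraries it ranged from -0.029 to 0.36 for Ph, -0.039 to 0.34 for Pho and -0.083 to 0.30 for E(z) at the wg promoter, -0.13 to 0.38 for Mod(mdg4) and -0.043 to 0.074 for CP190 past Wnt4. Left-out libraries moved H3K27me3 cover of Wnt10 from -6.52 to 76.3 points and of the Wnt4 to wg interval from -17.8 to 0.065, and Pc cover of wg from -3.66 to 5.89 and of the Wnt6 to Wnt10 interval from -2.38 to 0.63. With a -log10 q of 10 the Pc values were -3.03 and 2.01. Peaks per library ranged from -0.833 to 0.167 for Pc, -2.0 to 1.17 for Su(z)12 and -0.333 to 0.667 for Su(Hw). Pc gave 0.333 with a -log10 q of 10 and with equal lists, and equal lists gave -0.333 for Crol and Su(Hw). The causes were not tested.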
